A study of Mus musculus with 235 samples.

Results

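The genes described here are 37 targets of PPAR alpha and enzymes of fatty acid oxidation, measured in the livers of 31 inbred mouse strains given isoniazid or vehicle. A gene was used if at least 1 probe set of the array (a group of short probes for a transcript) carried its symbol alone, and where several did, the one with the highest mean level was taken. This left 34 of the 37 genes, of 18146 genes measured in all. They comprised 19 mitochondrial genes, 11 peroxisomal genes, 1 microsomal gene and 3 others, while Ucp2, Acsl1 and Cyp4a10 were not analysed here. None of the 34 genes was chosen by its values in these arrays, but the choice was made with earlier results of these data known.

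Female mice, 8 to 10 weeks of age at the start, received isoniazid, an antibiotic used against tuberculosis, at 100 mg/kg by oral gavage on each of 3 days, or the vehicle, sterile water. The left liver lobe was taken 24 hours after the last dose, and RNA of each animal was hybridised to 1 Affymetrix expression array. The 235 arrays came from 124 vehicle and 111 isoniazid animals, with 4 vehicle animals in every strain. In 9 strains, isoniazid animals that died before the end were left out by the submitters, so that 5 strains had 3 and 4 strains had 2 isoniazid arrays, all from survivors. The submitters coded 13 strains as having isoniazid-induced steatosis, an excess of fat in liver cells: BALB/cJ, FVB/NJ, CBA/J, DBA/2J, SJL/J, BTBR T+ tf/J, C57BLKS/J, NOR/LtJ, NZW/LacJ, SWR/J, BUB/BnJ, CE/J and LG/J. The other 18 were C3H/HeJ, C57Bl/6J, AKR/J, LP/J, MRL/MpJ, PL/J, SM/J, C57BR/cdJ, C58/J, KK/HIJ, NON/LtJ, MA/MyJ, PWK/PhJ, RIIIS/J, SEA/GnJ, 129S1/SvImJ, A/J and NOD/LtJ. The code is a property of a strain and not of an animal, and vehicle animals of a coded strain carry it too.

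PPAR alpha is a nuclear receptor that binds fatty acids and their derivatives and, paired with the retinoid X receptor, activates genes of fatty acid breakdown in the fasting liver. Mitochondria take in long-chain fatty acids through the carnitine shuttle and shorten them by beta-oxidation, and the liver turns much of the product into ketone bodies. Peroxisomes shorten very long and branched chains and hand the products on, and enzymes of the Cyp4a family in the endoplasmic reticulum (microsomes) oxidise the far end of the chain. In rodents the peroxisomal and microsomal genes are the classic inducible targets of the receptor.

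Sequence before the start sites is shown in 5 windows. Hadha and Hadhb share the bases between their starts, Cpt1a and Creb3l3 rose over the strains, and Ehhadh and Acaa1b fell. The letters are those of RefSeq promoters on build GRCm38.p6, which held entries used here for 28 of the 34 genes. Each line gives the 250 bases before a start, 5′ to 3′ on the gene's strand. In the first line, the window of Hadhb (chr5:30155003-30155252, plus strand), capitals mark the 228 bases that also lie within 250 bases of the start of Hadha. These genes encode the subunits of the mitochondrial trifunctional protein, lie head to head, and have starts 273 bases apart. In the windows of Cpt1a (chr19:3323051-3323300, plus strand) and Creb3l3 (chr10:81092592-81092841, minus strand), capitals mark the half-site AGGTCA of nuclear receptors, on either strand. A second RefSeq start of Creb3l3, with the window chr10:81098873-81099122, holds no half-site. The windows of Ehhadh (chr16:21787835-21788084, minus strand) and Acaa1b (chr9:119157094-119157343, minus strand), enzymes of peroxisomal beta-oxidation, have no capitals.
Hadhb: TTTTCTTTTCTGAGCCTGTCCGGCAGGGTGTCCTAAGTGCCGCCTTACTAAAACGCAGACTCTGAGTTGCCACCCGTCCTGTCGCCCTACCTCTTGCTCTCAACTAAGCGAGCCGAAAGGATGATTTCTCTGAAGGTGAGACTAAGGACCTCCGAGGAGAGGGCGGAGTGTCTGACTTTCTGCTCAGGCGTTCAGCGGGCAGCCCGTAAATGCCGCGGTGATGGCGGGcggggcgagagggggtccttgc
Cpt1a: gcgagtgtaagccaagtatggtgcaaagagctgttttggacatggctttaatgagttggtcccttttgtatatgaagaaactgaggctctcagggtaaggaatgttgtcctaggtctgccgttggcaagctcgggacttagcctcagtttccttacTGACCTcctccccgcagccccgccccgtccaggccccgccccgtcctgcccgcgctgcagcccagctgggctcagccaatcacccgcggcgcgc
Creb3l3: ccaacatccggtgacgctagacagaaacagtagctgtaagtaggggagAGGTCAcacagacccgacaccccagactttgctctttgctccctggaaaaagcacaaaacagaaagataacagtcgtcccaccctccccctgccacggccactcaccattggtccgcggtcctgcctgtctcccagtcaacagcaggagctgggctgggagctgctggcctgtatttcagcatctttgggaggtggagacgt
Ehhadh: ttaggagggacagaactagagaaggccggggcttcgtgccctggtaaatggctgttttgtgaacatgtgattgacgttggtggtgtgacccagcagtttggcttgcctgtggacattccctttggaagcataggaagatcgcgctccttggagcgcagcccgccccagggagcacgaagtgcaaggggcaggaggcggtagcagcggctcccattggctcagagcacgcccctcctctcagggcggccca
Acaa1b: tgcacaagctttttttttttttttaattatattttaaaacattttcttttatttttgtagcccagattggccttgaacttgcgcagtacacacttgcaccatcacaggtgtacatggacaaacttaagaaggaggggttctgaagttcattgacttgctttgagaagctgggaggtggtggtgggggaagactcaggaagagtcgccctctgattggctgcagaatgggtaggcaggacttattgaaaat

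The direct repeat to which PPAR alpha binds (DR1), taken here as AGGNCA, any base, and AGGNCA again and searched on both strands from 250 bases before to 50 after each start, was found in 0 of the 28 genes and in 0.381% of 32851 RefSeq promoters of the same length. The half-site AGGTCA, which a direct repeat can contain, was found in 5 of the 28 genes, Cpt1a (94 bases before the start), Acadvl, Acadm, Slc27a2 and Creb3l3, and in 16.3% of all promoters. Of these, Acadvl, Acadm and Slc27a2 neither rose nor fell over the strains in the test described below. Etfb, Bdh1 and Eci2 rose and hold no half-site here. The windows printed above therefore do not stand for the whole set. A match is a string of letters and not a bound site, and the absence of one says only that these letters are not in this window.

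Levels below are the deposited log2 expression values, summarised per probe set by RMA (robust multi-array average) before deposit, so that a difference of 1 is a doubling. A strain's value is the mean of its animals, and an effect is the isoniazid mean minus the vehicle mean of that strain. Effects were tested over the 31 strains with limma, with strains as replicates and p-values adjusted by the Benjamini-Hochberg method over all 18146 genes, and an adjusted p under 0.05 is called a rise or a fall. Over the strains, 6 of the 34 genes rose and 7 fell, and 21 were not called. Among all genes, 10.2% rose and 9.85% fell. In the top 10% of genes by mean level 29.0% rose and 20.6% fell, and of the 34 genes 17.6% rose and 20.6% fell. Of the 19 mitochondrial genes 4 rose (21.1%) and 1 fell (5.3%), a share of rises below that in the top 10% of genes by level. Of the 11 peroxisomal genes 1 rose (9.1%) and 4 fell (36.4%). The microsomal gene fell, and of the 3 other genes 1 rose and 1 fell. The median change was 0.00 log2 over the 19 mitochondrial genes, -0.05 over the 11 peroxisomal genes and 0.00 over all genes. The 21 uncalled genes had mean changes between -0.08 and 0.09.

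Cpt1a, the carnitine palmitoyltransferase that gates the entry of long-chain fatty acids into mitochondria, rose in the test over strains. Its vehicle level ran from 10.52 in C57BR/cdJ over a median of 11.07 to 11.45 in SM/J, and its isoniazid level from 10.75 in C57BR/cdJ over 11.35 to 11.58 in NZW/LacJ. The 2 ranges overlap, but within strains the isoniazid mean was the higher in 29 of 31. The mean change was 0.24 (SE 0.04, n = 31 strains, adjusted p = 5.74e-05), or 18.4%, and each of the 10 scan batches (arrays scanned on the same day) gave a difference above 0. For the batches, here and below, each array was taken as its deviation from the middle of its strain's 2 group means. Those means come from arrays of several batches, so the batches are a description and not independent replicates. In NZW/LacJ, the strain with the highest effect, the 4 vehicle animals had 10.82, 10.95, 10.95 and 11.004 and the 4 isoniazid animals 11.48, 11.58, 11.62 and 11.63, with no overlap. In PWK/PhJ, the strain with the lowest, the vehicle animals had 11.18, 11.28, 11.52 and 11.56 and the isoniazid animals 10.07, 10.85, 10.97 and 11.18. The effect in PWK/PhJ was -0.61 (adjusted p = 0.000183 within the strain), below the second lowest, -0.18 in FVB/NJ, which was not called. The other steps of the carnitine shuttle were not called over strains. Cpt2, which regenerates the acyl-CoA inside the mitochondrion, changed by 0.05 (adjusted p = 0.34), and the carrier Slc25a20 by 0.04 (adjusted p = 0.33).

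The acyl-CoA dehydrogenases, which carry out the first oxidation of each round on chains of decreasing length, were not called over strains. Acadvl changed by -0.05, Acadl by 0.02, Acadm by -0.08 and Acads by 0.01. Acadm lay closest to the threshold, with an adjusted p of 0.051 and values below 0 in 22 of 31 strains. The later steps of the spiral were not called either. Hadha and Hadhb changed by 0.01 and -0.02, Hadh, the short-chain hydroxyacyl-CoA dehydrogenase, by -0.02, and the thiolase Acaa2 by -0.01. The mean of Hadh contains 1 extreme strain: effects ran from -1.27 in PWK/PhJ, with -0.24 in NZW/LacJ next, to 0.20 in SWR/J.

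Hadha and Hadhb, whose start sites lie head to head as shown above, were correlated across strains. Over the 31 strain means of vehicle animals, Pearson's r between them was 0.88 (Spearman's rho 0.84), and over the 31 effects it was 0.82 (rho 0.81). Without PWK/PhJ the values of r were 0.92 and 0.84. Some pairs with no shared promoter, picked after their values were seen, had an r as high. It was 0.84 (rho 0.86) for the effects of Acadl and Hadhb and 0.89 (rho 0.625) for the vehicle levels of Hadh and Bdh1. The part of the shared bases in these correlations was not tested. The median r over all 561 pairs of the 34 genes was 0.40 for vehicle levels and 0.37 for effects. The subunits of the electron transfer flavoprotein, Etfa and Etfb, had an r of 0.46 for vehicle levels and 0.17 for effects. Strain means share arrays, so these are descriptions without a test.

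Of the electron carriers, Etfb rose by 0.11 (SE 0.02, adjusted p = 0.000213) and was higher in 26 of 31 strains. Etfa changed by 7.63e-05 (adjusted p = 0.999) and Etfdh, which passes the electrons to ubiquinone, by -0.01 (adjusted p = 0.81). Among the enzymes that prepare unsaturated chains, Decr1, the mitochondrial dienoyl-CoA reductase, rose by 0.10 (SE 0.03, adjusted p = 0.0062, higher in 24 strains). A second, dimmer probe set of Decr1 had a mean change of -0.12, and with the mean of its probe sets the change was -0.0056 (adjusted p = 0.94), so the rise rests on the choice of probe set. Ech1 and Eci1 changed by -0.01 and -0.02.

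Bdh1, the dehydrogenase that interconverts the ketone bodies acetoacetate and beta-hydroxybutyrate, rose by 0.23 (SE 0.03, adjusted p = 7.11e-06), or 17.1%, and was higher in 25 strains. Its effects ran from -0.22 in C3H/HeJ to 0.57 in 129S1/SvImJ. No strain passed the test by itself. That test uses the spread between animals pooled over all groups, an SD of 0.37 for Bdh1 and 0.19 for Cpt1a. The spread of Bdh1 was uneven between strains. Its SD under vehicle and isoniazid was 1.24 and 1.42 in PWK/PhJ, and 0.05 and 0.11 in KK/HIJ, where the effect of 0.43 was not called. Both probe sets of Bdh1 had a positive mean change, 0.23 and 0.15. The other 5 genes of ketone body metabolism in a list held beside the 34 genes had 0 that rose and 0 that fell, with changes from -0.06 to 0.04.

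Pdk4, the kinase that shuts pyruvate out of oxidation when fatty acids are burned, was the one mitochondrial gene of the 19 that fell in this test, a count that was 2 in 13 and 3 in 1 of 45 alternatives. Its vehicle level spanned from 5.17 in LG/J over a median of 7.26 to 10.79 in C58/J, and its isoniazid level from 4.99 in SEA/GnJ over 6.41 to 10.47 in C58/J. The mean change was -0.60 (SE 0.14, adjusted p = 0.0013), or -34.1%, with lower values in 23 strains and in all 10 scan batches. The strains did not share its size. In CBA/J the vehicle animals had 7.39, 7.40, 7.76 and 7.97 and the isoniazid animals 4.11, 5.17, 5.44 and 5.90, a fall of 2.47 (adjusted p = 0.000732) with no overlap. Effects of -2.43 in SEA/GnJ, with 2 isoniazid animals, and of -1.67 in NOR/LtJ were also called, while SM/J, with 2 isoniazid animals, and SJL/J had effects of 0.80 and 0.79 that were not. In C58/J, the strain with the highest level in both groups, the effect was -0.32 (adjusted p = 0.80).

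Of the enzymes of the peroxisomal spiral, Ehhadh, the bifunctional enzyme that hydrates and oxidises straight chains, fell by 0.37 (SE 0.07, adjusted p = 0.000178), or -22.7%, with lower values in 24 strains. Its vehicle level ran from 10.68 in RIIIS/J over 11.93 to 13.04 in C58/J, and its isoniazid level from 10.18 in LG/J over 11.71 to 12.58 in C58/J. In C3H/HeJ the vehicle animals had 11.90, 11.95, 12.15 and 12.38 and the isoniazid animals 10.27, 10.57, 11.22 and 11.56, and in NZW/LacJ 11.38 to 11.69 against 10.32 to 10.73. The groups did not overlap in either strain. Falls of Ehhadh were called in 5 strains, C3H/HeJ (-1.19), DBA/2J (-1.08), LG/J (-1.03), NZW/LacJ (-1.001) and PWK/PhJ (-0.64). In 129S1/SvImJ the effect was 0.68 and was not called.

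Acaa1b, the thiolase that closes the peroxisomal spiral, fell by 0.24 (SE 0.05, adjusted p = 0.000248), or -15.2%, with lower values in 28 strains. Its falls within strains were called in C3H/HeJ, DBA/2J, NZW/LacJ and PWK/PhJ, all of them strains where Ehhadh was called too. In NZW/LacJ the vehicle animals had 13.47, 13.60, 13.65 and 13.70 and the isoniazid animals 12.60, 12.61, 12.64 and 12.92. Over the strains the effects of Acaa1b and Ehhadh had an r of 0.67 (rho 0.66) and their vehicle levels an r of 0.77 (rho 0.80). Acaa1b has a near-identical copy, Acaa1a, which shares other probe sets of the array, so its signal may hold some of that gene's transcript. Hsd17b4, the bifunctional enzyme for branched chains and bile acid precursors, changed by 0.01 (adjusted p = 0.90).

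Of the peroxisomal enzymes for unsaturated chains, Eci2, an enoyl-CoA isomerase, rose by 0.13 (SE 0.02, adjusted p = 5.72e-05) with higher values in 26 strains and in all 10 scan batches. Decr2, the peroxisomal dienoyl-CoA reductase, changed by 0.09 (adjusted p = 0.20), from -0.69 in PWK/PhJ to 0.51 in A/J, and fell in PWK/PhJ and NZW/LacJ (-0.53). Crot, which attaches carnitine to shortened chains for export to mitochondria, fell by 0.13 (SE 0.04, adjusted p = 0.011, lower in 23 strains). Its call was lost in 4 alternatives, with adjusted p from 0.054 to 0.077. Acot8, a peroxisomal thioesterase, changed by -0.03.

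At the peroxisomal membrane, Abcd2, a transporter of very long chains that is close kin to the gene of adrenoleukodystrophy, fell by 0.44 (SE 0.07, adjusted p = 3.06e-05), or -26.2%, with lower values in 27 strains and in all 10 scan batches. Its vehicle level ran from 5.35 in C57BR/cdJ over 8.17 to 8.91 in C3H/HeJ. All 4 of its probe sets had a negative mean change, from -0.56 to -0.10. Abcd3, the abundant transporter of the same membrane, changed by -0.05 (adjusted p = 0.22). Slc27a2, an acyl-CoA synthetase for very long chains, changed by -0.06 (adjusted p = 0.22), and Pex11a, which drives division of peroxisomes, by -0.000875 (adjusted p = 0.99).

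Cyp4a14, the microsomal omega-hydroxylase and a standard marker of PPAR alpha activation in mouse liver, fell by 0.32 (SE 0.09, adjusted p = 0.0079), or -20.1%, with lower values in 26 strains and in all 10 scan batches. Its vehicle level ran from 12.42 in LG/J over 13.29 to 13.71 in C58/J. The largest effect was in LG/J, where the 4 vehicle animals had 11.71, 12.51, 12.66 and 12.82 and the 3 surviving isoniazid animals 8.29, 9.34 and 11.41, a fall of 2.74 (adjusted p = 1.47e-23). P-values within strains use a spread between animals pooled over all 62 groups. The LG/J animals alone had an SD of 0.49 under vehicle and 1.58 under isoniazid. In PWK/PhJ the vehicle animals had 12.97, 13.02, 13.18 and 13.32 and the isoniazid animals 11.13, 11.37, 11.57 and 12.35, a fall of 1.52 (adjusted p = 9.7e-11). The groups did not overlap in either strain, nor in NZW/LacJ, where the fall of 0.56 was called. In LG/J the other called genes were Ehhadh, which fell, and Cpt1a, which rose by 0.55.

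Vnn1, a pantetheinase of the cell surface that recycles vitamin B5 and is strongly driven by PPAR alpha in the liver, fell in the test over strains. Its vehicle level ran from 9.09 in MRL/MpJ over 10.72 to 12.14 in C58/J, and its isoniazid level from 8.20 in C3H/HeJ over 10.09 to 11.51 in MA/MyJ. The mean change was -0.64 (SE 0.09, adjusted p = 1.96e-06), or -35.9%, with lower values in 28 of 31 strains and in all 10 scan batches. In PWK/PhJ, with the lowest effect, the vehicle animals had 9.90, 10.37, 11.23 and 11.39 and the isoniazid animals 7.67, 8.63, 9.39 and 9.76, with no overlap. In 129S1/SvImJ, with the highest, the vehicle animals had 10.24, 10.36, 10.52 and 10.69 and the isoniazid animals 10.30, 10.81, 10.90 and 11.09, which overlap. Falls were called in PWK/PhJ, C3H/HeJ (-1.79) and AKR/J (-1.39). The second probe set of Vnn1 had a mean change of -0.68.

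The transcription factors of the set differed. Ppara itself changed by 0.03 (SE 0.04, adjusted p = 0.72), with effects from -0.54 in PWK/PhJ to 0.44 in C57BLKS/J, and no strain was called. Its other probe sets had mean changes of 0.05 and 0.08. Creb3l3, a membrane-bound factor of the endoplasmic reticulum that works with PPAR alpha in the fasting liver, rose by 0.11 (SE 0.03, adjusted p = 0.0016, higher in 25 strains). It was called in NZW/LacJ (0.39) and PWK/PhJ (0.31). The effects of Cpt1a and Creb3l3 had an r of 0.37 (rho 0.61) over 31 strains, where the median over all pairs was 0.37, and 0.74 over the 30 strains without PWK/PhJ.

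**Figure D1:**
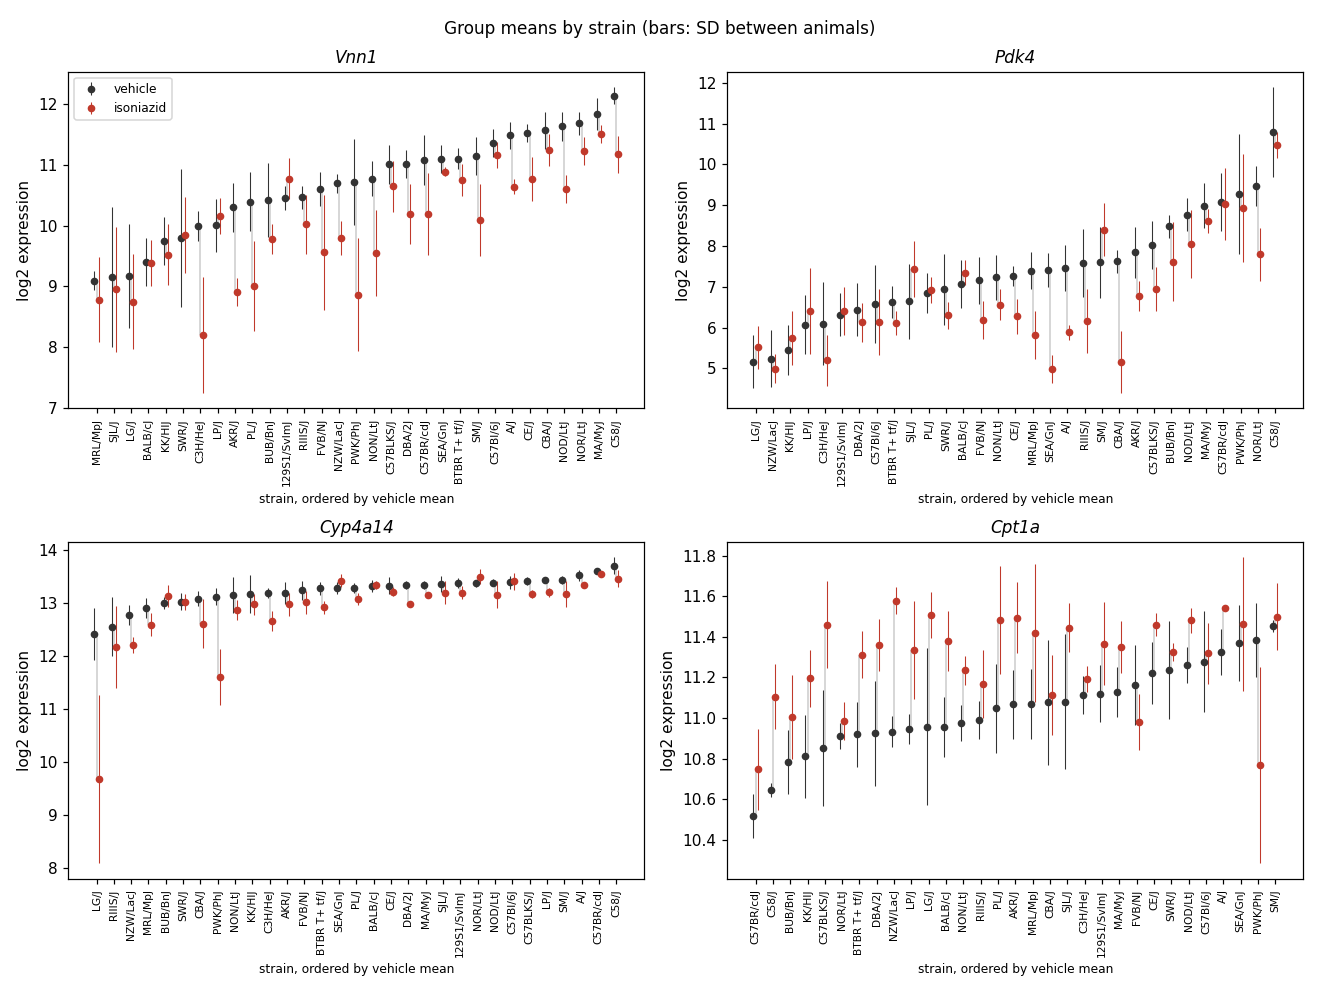
Group means (log2 expression, vertical axis) of Vnn1, Pdk4, Cyp4a14 and Cpt1a in each strain (horizontal axis, ordered by vehicle mean), with vehicle in black, isoniazid in red and the SD between animals as bars. The red points lie mostly below the black ones for Vnn1, Pdk4 and Cyp4a14 and mostly above for Cpt1a, with PWK/PhJ and FVB/NJ as the strains where Cpt1a was lower and LG/J as the lowest for Cyp4a14.

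The strains differed in how some of these genes responded, as they did for many genes of high mean level. The interaction of strain and treatment was tested with limma in a fit of all 62 groups, with animals as replicates. The effect differed between strains for 16 of the 34 genes, 8 of 19 mitochondrial and 5 of 11 peroxisomal, beside 17.0% of all genes and 939 of the 1815 genes in the top 10% by mean level. Leaving out the animals of 1 number gave 6 to 12 of the 34 genes. The F values were highest for Cyp4a14 (6.81, adjusted p = 4.18e-14), Slc27a2 (4.72, adjusted p = 3.85e-09), Hadh (3.67, adjusted p = 1.88e-06), Cpt1a (3.31, adjusted p = 1.55e-05) and Ehhadh (3.30, adjusted p = 1.65e-05). Without PWK/PhJ 11 genes were called, 9 of them among the 16, beside 14.8% of all genes. Without NZW/LacJ 11 genes were called, beside 12.9% of all genes, and without LG/J 16, beside 16.6%, and Cyp4a14 was called in each case, with an F of 3.92 without LG/J (adjusted p = 7.2e-07). The rises of Bdh1 (F 0.51, adjusted p = 0.99), Etfb and Eci2 and the fall of Abcd2 had no detectable difference between strains. The F test uses the pooled spread, which for Bdh1 includes the wide spread of the PWK/PhJ animals given above.

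Within strains, 50 of 1054 pairs of gene and strain were called, 12 that rose and 38 that fell, beside 1.27% higher and 0.723% lower over all genes and strains. Of the 50 pairs, 21 were in PWK/PhJ and 10 in NZW/LacJ, and 19 strains had none. Leaving out the animals of 1 number gave 29 to 42 pairs. For 9 genes PWK/PhJ was the only strain called. P-values were adjusted over all genes separately in each strain, so the threshold depends on how many other genes changed there. In limma's contrasts, Cpt1a was called at 0.44 in DBA/2J (SE 0.13, adjusted p = 0.030). It was not called at 0.43 in PL/J (SE 0.14, adjusted p = 0.64). Counts of called strains therefore do not compare effects at 1 threshold. Besides those named above, C57BR/cdJ had rises of Eci1 (0.43) and Eci2 (0.36), DBA/2J had a rise of Etfb (0.32) and a fall of Slc27a2 (-0.26), and Cpt1a rose in DBA/2J, C57BLKS/J, C58/J, LG/J and NZW/LacJ by 0.44 to 0.64. Animals shown singly beyond the highest and lowest strain of Cpt1a and Vnn1 were chosen after their values were seen.

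PWK/PhJ had the widest response. There 19 of the 34 genes fell and 2 rose, while 4.73% of all genes fell and 10.4% rose in the same strain. These shares are over genes of all levels, and genes of high mean level were called more often in the test over strains. The vehicle and isoniazid animals overlapped for most of the called genes and did not for 6. Over all strains, 31 of the 50 called pairs of gene and strain had no overlap. Overlap was not counted over all genes, so whether 6 is many or few for this strain is not known. The fall took in the shuttle (Cpt1a -0.61, Slc25a20 -0.38), the dehydrogenases (Acadvl -0.40, Acadl -0.34, Acadm -0.66, Acads -0.67), the later spiral (Hadh -1.27, Acaa2 -0.70), Etfdh (-0.51) and Ech1 (-0.43). It also took in the peroxisomal Ehhadh (-0.64), Hsd17b4 (-0.29), Acaa1b (-0.75), Decr2 (-0.69), Crot (-0.76), Abcd2 (-1.27) and Slc27a2 (-0.85), the microsomal Cyp4a14 (-1.52), and Vnn1 (-1.86). The genes that rose were Creb3l3 (0.31) and Eci2 (0.29).

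The size of the fall varied among the PWK/PhJ animals. Hadh had 11.45, 11.97, 12.18 and 12.48 in the vehicle animals and 9.68, 10.81, 10.82 and 11.66 in the isoniazid animals, where the highest isoniazid value lies above the lowest vehicle value. Slc27a2 had 13.44, 13.51, 13.52 and 13.65 against 12.27, 12.40, 12.85 and 13.23, with no overlap. Abcd2 had 4.15, 5.40, 5.45 and 6.64 against 3.47, 4.00, 4.44 and 4.64, and Decr2 had 8.03, 8.31, 8.80 and 9.07 against 7.33, 7.56, 8.23 and 8.33. Taken as the median deviation of the 19 mitochondrial genes from the strain's vehicle mean, the isoniazid animals lay at -0.62, -0.47, -0.32 and -0.13 and the vehicle animals at -0.42, 0.09, 0.16 and 0.23. The vehicle animal at -0.42 is the array of narrow spread in this strain, 1 of 21 such arrays in the series. Without it 24 genes fell and 0 rose in PWK/PhJ, and without isoniazid animal 2 or 3 the number that rose was 1. Leaving out each of the 8 animals in turn gave 14 to 24 genes that fell. Of the 19 genes that fell, 10 had other probe sets, and 14 of these 15 probe sets had a negative effect in PWK/PhJ, the exception being a dim one of Crot.

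Whether PWK/PhJ differed from the rest was tested after these values were seen, as the difference between its effect and the mean effect of the other 30 strains in the same limma fit. The effect was lower in PWK/PhJ for 17 of the 34 genes and higher for 0, beside 4.05% of all genes lower and 8.78% higher, again over genes of all levels. The 17 comprised 10 of 19 mitochondrial genes, 5 of 11 peroxisomal genes, Cyp4a14 and Vnn1. The differences were largest for Hadh (-1.29, SE 0.13, adjusted p = 1.92e-15), Vnn1 (-1.26, SE 0.36, adjusted p = 0.0075) and Cyp4a14 (-1.23, SE 0.20, adjusted p = 3.46e-07). These SEs use the spread pooled over all groups. The PWK/PhJ animals alone had an SD for Hadh of 0.43 under vehicle and 0.81 under isoniazid. That of Slc27a2 was -0.81 (SE 0.08, adjusted p = 4.82e-16) and that of Cpt1a -0.89 (SE 0.14, adjusted p = 8.62e-08). For Ehhadh (-0.28, adjusted p = 0.53), Pdk4 (0.28, adjusted p = 0.80), Etfb (0.00, adjusted p = 0.99) and Ppara (-0.58, adjusted p = 0.083) no difference was called.

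Among other lists in PWK/PhJ, 0 rose and 9 fell of 21 other genes of mitochondrial oxidation, and 6 rose and 9 fell of 34 other peroxisomal genes. Of 24 other targets of PPAR alpha 2 rose and 6 fell, of 9 other microsomal genes 0 rose and 4 fell, and of 5 other ketone body genes 0 rose and 1 fell. Of 21 partners and cofactors of PPAR alpha, 8 fell and 0 rose there, with a median effect of -0.35. Of 10 general hepatocyte markers 1 fell and 0 rose (median 0.04), and their mean log2 level was 13.44 to 13.63 in the vehicle animals and 13.42 to 13.70 in the isoniazid animals. Of 11 pericentral markers, genes of hepatocytes near the central vein, 6 fell (median -0.40), and of 10 periportal markers 4 fell (median -0.18). Of 16 macrophage markers 2 fell (median -0.59), with a mean level of 6.15 to 6.30 against 5.58 to 6.02. In bulk RNA, fewer cells of a type and less RNA per cell cannot be told apart, and the part of these lists in the fall of the fatty acid genes was not tested.

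NZW/LacJ showed a mixed pattern. Cpt1a (0.64), Creb3l3 (0.39) and Etfb (0.26) rose, and Acadvl (-0.33), Acads (-0.45), Ech1 (-0.48), Ehhadh (-1.001), Acaa1b (-0.91), Decr2 (-0.53) and Cyp4a14 (-0.56) fell, beside 9.32% of all genes higher and 3.33% lower in this strain. All 7 genes that fell in NZW/LacJ also fell in PWK/PhJ. Cpt1a was the only gene called in opposite directions in these strains. In NZW/LacJ 4 of the 10 hepatocyte markers rose and 0 of 16 macrophage markers were called.

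**Figure D2:**
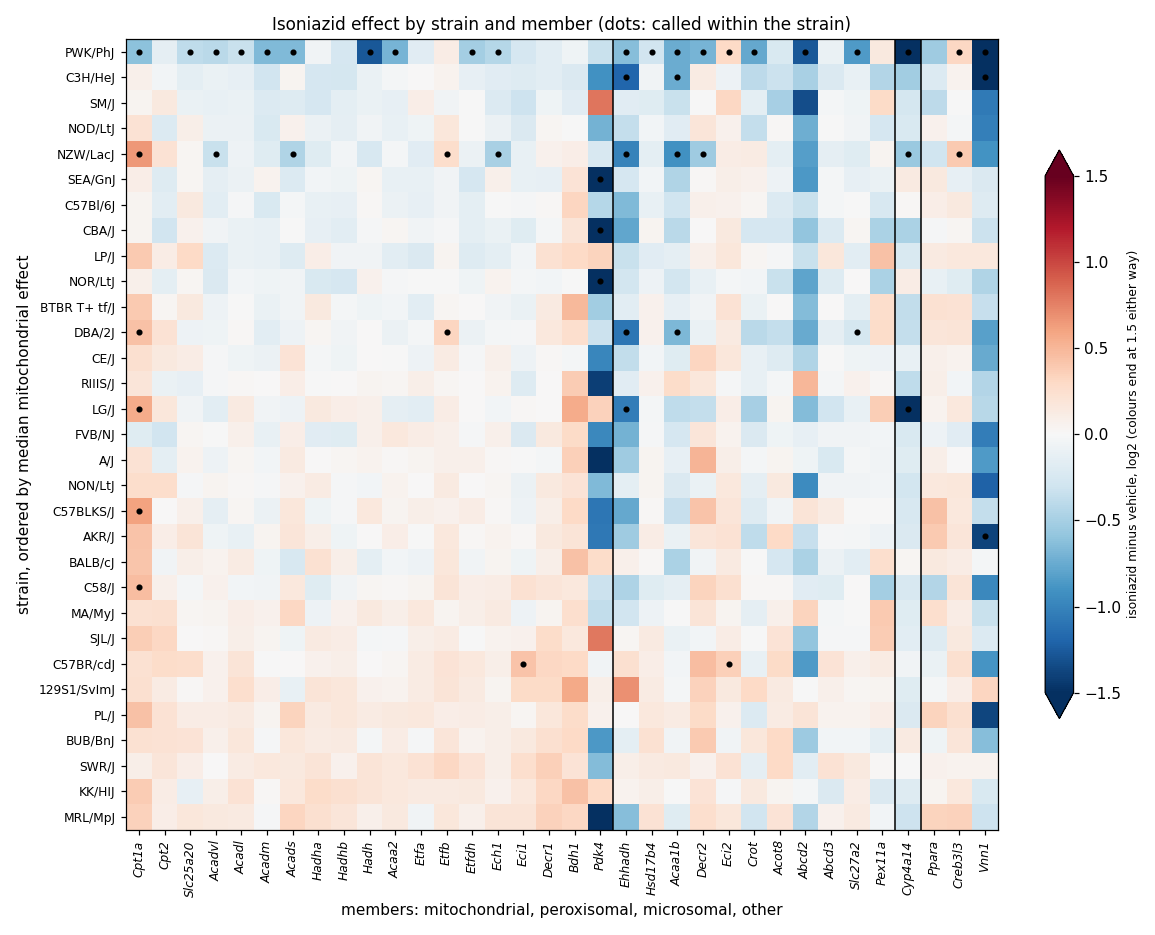
Isoniazid effect (log2, colour scale) of each gene (columns, by compartment) in each strain (rows, ordered by the median effect of the mitochondrial genes), with black dots where the gene was called within the strain. PWK/PhJ forms the top row with 21 dots, Ehhadh, Acaa1b, Abcd2, Cyp4a14 and Vnn1 are blue in most rows, and the mitochondrial columns other than Pdk4 are mostly pale outside PWK/PhJ.

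The median effect of the 11 peroxisomal genes lay below that of the 19 mitochondrial genes in 26 of 31 strains. This describes the genes chosen here and not the compartments as a whole. Over the strains, 34 other peroxisomal genes had a median change of 0.02 and 21 other genes of mitochondrial oxidation one of 0.04. The strain medians of the mitochondrial genes ran from -0.34 in PWK/PhJ, with -0.12 in C3H/HeJ next, to 0.17 in MRL/MpJ, and 18 of 31 lay above 0. Those of the peroxisomal genes ran from -0.64 in PWK/PhJ, with -0.32 in C3H/HeJ next, to 0.14 in SWR/J, and 7 lay above 0. LG/J and DBA/2J had mitochondrial medians of 0.02 and -0.03 and peroxisomal medians of -0.29 and -0.26. The effects of Cpt1a and Ehhadh had an r of -0.01 over the strains, and those of Ehhadh and Cyp4a14 an r of 0.46 (rho 0.59). These medians describe genes of different probe sets and carry no test.

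**Figure D3:**
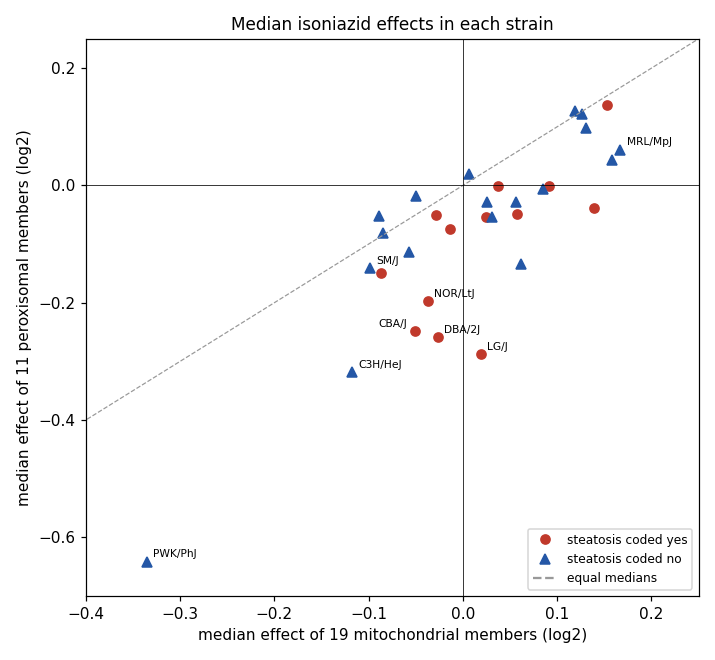
Median effect of the 11 peroxisomal genes (log2, vertical axis) against that of the 19 mitochondrial genes (log2, horizontal axis), with 1 point per strain, red circles for strains coded with steatosis and blue triangles for the others, and a dashed line where the medians are equal. PWK/PhJ stands alone at -0.34 and -0.64, 26 strains lie below the dashed line, and red and blue points are mixed.

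No difference by the steatosis code was detected for these genes. The isoniazid effect differed between the 13 coded and the 18 other strains for 0 of the 34 genes and for 0% of all genes at an adjusted p under 0.05 in limma, and at an unadjusted p under 0.05 for 0 of the 34 and for 491 genes in all. The mean effect of Cpt1a was 0.30 ± 0.25 (SD, n = 13) in coded strains and 0.20 ± 0.24 (SD, n = 18) in the others, a difference of 0.10 with a 95% interval from -0.08 to 0.27. That of Vnn1 was -0.48 ± 0.33 and -0.76 ± 0.64, a difference of 0.28 with an interval from -0.09 to 0.65. For Ehhadh the difference was -0.17 (-0.46 to 0.12), for Pdk4 -0.07 (-0.64 to 0.50) and for Cyp4a14 -0.10 (-0.48 to 0.27). Vnn1 had the smallest unadjusted p of the 34 genes (0.13). Of the 9 strains with deaths, 1 was coded with steatosis.

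Vehicle levels gave the same count. They differed by the code for 0 of the 34 genes and 0% of all genes, and for 0 and 737 at an unadjusted p under 0.05. With animals in place of strains as replicates, which ignores that the code belongs to strains, 6 genes and 1957 genes in all were called for the vehicle level and 0 and 35 for the effect. Abcd2 had the largest mean difference upward, 8.17 ± 0.42 in coded and 7.68 ± 1.05 in other strains, and the largest downward was that of Pdk4, 7.09 ± 1.18 and 7.60 ± 1.35.

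Without any drug the strains differed for nearly all of these genes, as they did for nearly all genes of high mean level. The vehicle level differed between the 31 strains for 33 of the 34 genes in limma's F test, beside 53.4% of all genes and 1755 of the 1815 genes in the top 10% by mean level, with Etfa as the exception (F 1.59, adjusted p = 0.062). The F values were highest for Ech1 (15.1, adjusted p = 2.47e-33), Pdk4 (15.1, adjusted p = 2.62e-33) and Abcd2 (15.0, adjusted p = 3.95e-33). C58/J had the highest level of Pdk4, Ehhadh, Pex11a, Cyp4a14 and Vnn1, and the lowest of none of the 34 genes. Its Pdk4 level was 10.79 ± 1.10 (SD, n = 4 animals), against 9.46 ± 0.49 in NOR/LtJ, the next highest, and the animals of C58/J ran from 9.84 to 12.36. The C58/J median over the mitochondrial genes was at the strain median (0.00), and Cpt1a was second lowest there, at 10.64. C58/J lay above the strain median for 9 mitochondrial and 8 peroxisomal genes. Among those below it were Abcd2 (6.47 against a median of 8.17), Crot (11.58 against 12.10) and Bdh1 (10.47 against 11.56).

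Other strains stood apart across the set. NOD/LtJ lay above the strain median for all 19 mitochondrial and all 11 peroxisomal genes, and A/J for 19 and 10, with median deviations of 0.25 and 0.23 in NOD/LtJ and 0.24 and 0.29 in A/J. RIIIS/J, LG/J, C57BR/cdJ and PWK/PhJ each had the lowest level of 7 genes. DBA/2J lay above the strain median for 0 mitochondrial genes and 1 peroxisomal gene, C57BR/cdJ for 1 and 0, and LG/J for 1 and 3. The genes were correlated over strains (median r 0.40 for vehicle levels), so they do not count separately. The same counts were not made over all genes. RIIIS/J had the lowest Acaa1b (12.86 against a median of 13.73) and the lowest Ehhadh (10.68 against 11.93), and its effects on them, 0.27 and -0.17, were not called. Its 4 vehicle animals varied widely, with an SD of 1.11 for Acaa1b and 1.04 for Ehhadh.

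Some low levels rested on the probe set. Ppara was lowest in PWK/PhJ with the probe set used, 8.22 against a median of 10.43, its animals at 7.37, 8.37, 8.44 and 8.69. With the other probe sets of Ppara, C57BR/cdJ was the lowest, and PWK/PhJ had 9.40 and 8.34 against medians of 9.99 and 8.88. The Vnn1 level of PWK/PhJ was the median over strains with the probe set used (10.72) and the lowest with the other, 6.10 against 10.03. By contrast, Bdh1 was lowest in C57BR/cdJ with both of its probe sets, 9.34 against 11.56 and 5.83 against 8.501, and its C57BR/cdJ animals ran from 9.07 to 9.72. Whether sequence differences between strains under the probes shifted such levels was not tested.

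Genes of the same pathways outside the 34, from lists chosen with earlier results known, moved as follows over the 31 strains. Of 21 other genes of mitochondrial oxidation 4 rose and 2 fell. Acad12 (0.37, higher in 31 strains) and Acad10 (0.27), relatives of the acyl-CoA dehydrogenases, rose, as did Acsm1 (0.39), a medium-chain acyl-CoA synthetase, and Acsf3 (0.31), which activates malonate. The genes that fell, named after their values were seen, were Acadsb, a dehydrogenase of branched chains (-0.22), and Acsm3 (-0.17). Of 34 other peroxisomal genes 7 rose and 6 fell. The rise was largest for Pex11g (0.44, higher in 31 strains), a relative of Pex11a, followed by the import chaperone Pex19 (0.31), while the racemase Amacr (-0.15) and the import receptor Pex7 (-0.14) fell. Of 9 other microsomal genes 0 rose and 0 fell, with changes from -0.10 to 0.04.

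Of 24 other targets of PPAR alpha 6 rose and 4 fell. Acot1 and Acot2, thioesterases of the cytosol and mitochondria, fell by 1.17 and 1.10 with lower values in all 31 strains. They are near-identical copies, so their signals may be mixed. The lipid droplet protein Plin4 fell by 0.57, and Cyp8b1, the sterol hydroxylase of bile acid synthesis, rose by 0.46. Cidec, a lipid droplet protein named after its value was seen, rose by 0.99. Of 21 partners and cofactors 1 rose and 3 fell, Pnpla2, the triglyceride lipase that frees fatty acids (0.26), and Hnf4a (-0.20, lower in 31 strains), Sirt1 (-0.18) and Nrip1 (-0.18).

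Cell type markers moved over the strains as well. Of 10 hepatocyte markers 1 rose (Cps1, 0.17) and 0 fell. Of 11 pericentral markers 3 rose and 6 fell, Cyp27a1 (-0.30), Oat (0.28) and Rhbg (0.22) with the largest t, and of 10 periportal markers 3 rose and 1 fell, Cps1, Asl (0.36) and Pigr (-0.26). Of 16 macrophage markers 9 fell and 0 rose, with a median of -0.20, among them Csf1r (-0.28), Cd5l (-0.28) and Lyz2 (-0.26). Over strain means, the mean log2 level of the macrophage list ran from 5.90 to 7.91 under vehicle and from 5.59 to 8.19 under isoniazid, and that of the hepatocyte list from 13.37 to 13.80 and from 13.36 to 13.76. Of 14 endothelial markers 3 fell (Stab2, Tie1 and Kdr), of 7 B cell markers 3 fell (Cd79b, Cd74 and Ms4a1), and stellate (Reln), bile duct (Sox9), T and NK cell (Gzmb), neutrophil (S100a9) and red cell (Alas2) markers had 1 each that fell. None of these lists had a member that rose. The part of these shifts in the changes of the fatty acid genes was not tested.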

How the data were processed

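RNA of 235 livers was hybridised to 1 array each. The deposited log2 values per probe set were made by the authors with RMA (the submitters' processing notes name it and Affymetrix Power Tools), with versions not given in the sources used here. Of 44721 probe sets, 34717 carried 1 gene symbol, and the one with the highest mean was kept for each of 18146 genes. Means per strain and treatment were tested with limma 3.58.1 in R 4.3.3: strain differences over 31 strains, the steatosis code between strains, and a fit of 62 groups (173 residual degrees of freedom) for the interaction, the vehicle level and contrasts within strains, adjusted by Benjamini-Hochberg over all genes (threshold 0.05). Scripts were tested on simulated data. Array medians were 3.96 to 4.21, replicates correlated at 0.955 to 0.995, and 21 arrays had a narrow spread of values (SD 2.10 to 2.20, others 2.23 to 2.35). The number of arrays limits the precision. P-values over strains measure the spread between these strains. Those of the fit of 62 groups use 1 spread between animals per gene, pooled over all groups, and not that of a strain's own animals. All 34 genes could be named; full statistics were kept for genes called over strains and Ppara, and up to 4 called genes per pathway list and 3 per cell type list by absolute t. The genes and lists were chosen with earlier results of these data known, and the PWK/PhJ contrast after its values were seen. Other probe sets, filters, weights, blocks and left-out strains, animals and arrays were tried as alternatives.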

Additional observations from a re-analysis of the deposited data

Results flagged for a closer look

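Among 35 groups of 4 animals tested for an animal apart from the rest, where chance flags about 5%, 2 had one. The highest isoniazid animal of C57Bl/6J for Ppara was at 10.84 against 10.56 to 10.57 in the other animals. The highest isoniazid animal of NZW/LacJ for Acaa1b was at 12.92 against 12.60 to 12.64.

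The isoniazid effect differed between strains for 16 genes by the interaction F test of limma. The adjusted p was 4.18e-14 for Cyp4a14, 3.85e-09 for Slc27a2, 1.88e-06 for Hadh, 1.55e-05 for Cpt1a and 1.65e-05 for Ehhadh. It was 0.000592 for Pdk4, 0.003 for Acaa1b, 0.0053 for Vnn1, 0.0056 for Acadm, 0.0079 for Acads and 0.0095 for Acaa2. For Decr2 it was 0.0234, for Eci1 0.0277, for Creb3l3 0.0307, for Ech1 0.0348 and for Pex11a 0.0447.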

How the results depend on the processing

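Over strains, the number of genes that rose was 5 to 7 in 45 alternatives and the number that fell 6 to 8, except with animals as replicates, where 11 fell. The count by steatosis code was 0 for the effect in all 45, and for the vehicle level 6 with animals as replicates and 0 in the other 43. With the mean of probe sets the change of Decr1 was -0.0056, and without replicate 2 its adjusted p was 0.055. Leaving out animals of 1 number or 1 of 3 strains gave 6 to 16 genes that differed between strains (6 without number 1, 10 without 3 and 8 without 4) and 29 to 47 called pairs (31 without PWK/PhJ). In PWK/PhJ, leaving out 1 animal gave 0 to 3 genes that rose and 14 to 24 that fell, and without the 21 arrays of narrow spread, an alternative chosen after seeing the data, 1 rose and 26 fell. With scan date as a term 23 genes differed between strains and 58 pairs were called. Without those 21 arrays 24 genes differed between strains and 66 pairs were called. With the animal number as a replicate block 6 genes rose, 7 fell, 16 differed between strains and 50 pairs were called, and the numbers did not pair the animals: of 111 same-numbered pairs the median correlation was -0.02 and 24 were over 0.1. Weights by animals were not run for vehicle levels. Groups of 2 to 4 animals limit what could be detected within a strain.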
